A study of Mus musculus with 6 samples.

Results

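The 5 genes described here are those of the transforming growth factor beta (TGF-beta) pathway that were chosen by name from a panel of 254 mouse transcripts: the ligand genes Tgfb1, Tgfb2 and Tgfb3, the type I receptor gene Tgfbr1 and the inhibitor gene Smad7. All 5 were found in the table and all 5 passed the filter on low values that left 240 genes for testing. The animals were SKH-1 mice, a hairless strain with an intact immune system, and RNA of their full-thickness dorsal skin was measured by nCounter, an assay that counts barcoded probes bound to RNA without amplification. The UV plus BMS-202 group (n = 3) received BMS-202, an inhibitor of the immune checkpoint ligand PD-L1, applied to the back skin (8 mM in 200 µl), and the UV group (n = 3) received the vehicle, acetone. Both groups were treated 3 times, at 24 h and 1 h before and directly after 1 acute dose of solar simulated light (UVA at 90 kJ/m2 with UVB at 6 kJ/m2), and the tissue was taken 24 h later. Skin without UV exposure was not analysed here, so no value says where a gene stood before irradiation. The labels give 3 mice per group without tying a sample to a mouse, so the p-values measure the spread between these samples, which may be technical. Whole skin mixes many cell types, and fewer cells of a type cannot be told apart from less RNA per cell.

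TGF-beta ligands are secreted as latent complexes, bind a type II receptor and thereby recruit and activate the type I receptor, encoded by Tgfbr1. That kinase phosphorylates SMAD transcription factors, and it also feeds into MAP kinase branches. Smad7, itself a target of the pathway, binds the activated type I receptor and dampens the signal. In skin the pathway is known for restraining keratinocyte growth, for wound repair and matrix deposition, and for limiting immune responses. Tgfb1 is the ligand most tied to immune cells and platelets, whereas Tgfb2 and Tgfb3 are best known from epithelial and mesenchymal tissue and from development.

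The upstream sequences of Tgfb1, Tgfb2 and Tgfbr1 are shown, to set an abundantly counted ligand gene, a ligand gene near background and the receptor gene side by side. Tgfb3 had no entry among the promoters used, and Smad7 was left out. The sequences are the 250 bases before a RefSeq transcription start (GRCm38.p6), 5′ to 3′ on the gene's strand. Capitals mark matches on either strand to the TATA box TATAAA, the GC box GGGCGG, the E-box CACGTG and the SMAD-binding CAGAC. No match of the AP-1 motif TGANTCA lies in these windows, and no marked matches overlap each other. The windows are chr7:25686752-25687001 (plus strand) for Tgfb1, chr1:186705990-186706239 (minus strand) for Tgfb2 and chr4:47352972-47353221 (plus strand) for Tgfbr1.
Tgfb1: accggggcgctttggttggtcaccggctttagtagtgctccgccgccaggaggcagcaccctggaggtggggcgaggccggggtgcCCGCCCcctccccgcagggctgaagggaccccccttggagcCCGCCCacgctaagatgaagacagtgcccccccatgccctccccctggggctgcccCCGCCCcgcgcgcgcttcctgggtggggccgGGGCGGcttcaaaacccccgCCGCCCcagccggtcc
Tgfb2: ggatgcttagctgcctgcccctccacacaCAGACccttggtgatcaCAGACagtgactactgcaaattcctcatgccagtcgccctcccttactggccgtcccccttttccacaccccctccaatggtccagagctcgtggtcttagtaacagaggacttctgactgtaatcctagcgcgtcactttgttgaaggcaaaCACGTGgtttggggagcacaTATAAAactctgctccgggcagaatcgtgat
Tgfbr1: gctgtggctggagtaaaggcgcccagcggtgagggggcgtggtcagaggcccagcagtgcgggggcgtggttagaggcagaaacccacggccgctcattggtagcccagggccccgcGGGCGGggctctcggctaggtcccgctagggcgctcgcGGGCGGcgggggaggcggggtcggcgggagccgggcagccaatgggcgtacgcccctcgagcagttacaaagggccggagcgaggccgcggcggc
The Tgfb1 window holds 5 GC boxes and no TATA box, and 75.2% of its bases are G or C. The Tgfb2 window holds no GC box but 1 TATA box, 1 E-box and 2 CAGAC matches, at 53.6% G or C. The Tgfbr1 window holds 2 GC boxes and no TATA box, at 74.8% G or C. Of 32851 mouse promoter windows of this length, 32.7% hold the GC box, 12.4% the TATA box, 6.02% the E-box, 42.2% CAGAC and 6.75% TGANTCA. These matches describe letters in the windows and not sites of binding.

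Values are relative to the glycolytic gene Gapdh, which the deposited scaling sets to the same level in every sample, and values below 20 are written as 20. The UV plus BMS-202 samples had between 41537 and 45040 gene counts each, and the UV samples between 142900 and 160891. The highest negative control limit (mean plus 2 SD of 8 probes with no target) was 45.3 in UV plus BMS-202 skin and 26.6 in UV skin on the scale of the values. Relative to Gapdh the other 5 housekeeping genes also read 2.33 to 10.6-fold lower in UV plus BMS-202 skin, so directions are given relative to Gapdh unless another scaling is named.

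All 5 TGF-beta genes read lower relative to Gapdh in skin treated with BMS-202, Tgfb1 by far the most among the 4 that remained measurable. Each passed the threshold (limma over 240 genes, Benjamini-Hochberg adjusted p under 0.05), though Tgfb2 entered the fit through the UV samples alone, which fixed its direction, at a background where 55% of tested genes were called lower and 38.3% higher. The groups did not overlap for any of the 5, as was the case for 95% of tested genes. A median log2 difference of -1.53 over the 5 genes stood beside -0.56 over all tested genes. A lower reading was thus the most frequent outcome in the panel, and the sizes differ between the members.

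Among the ligands, Tgfb1 had values of 82.4, 64.4 and 79.7 in the UV plus BMS-202 samples, against 926.7, 1060.3 and 1017.6 in the UV samples. Every BMS-202 sample was above its negative control limit and more than 10-fold below the lowest UV sample. The means were 75.5 ± 9.68 in UV plus BMS-202 skin and 1002 ± 68.3 in UV skin (SD, n = 3 each), a 13.3-fold lower level and a log2 difference of -3.72 (SE 0.097, 95% interval -3.94 to -3.50, limma adjusted p = 7.97e-11). With values at the floor taken as 20, 4 of the other 239 tested genes had a more negative difference, namely Il18, Mef2c_Mm, H2-Eb1 and Fxyd2, of which Il18 and H2-Eb1 were named after their values were seen. Genes at the floor or under the negative control limit with BMS-202 could lie lower than they read, so this rank is not settled. The counts behind the values were 54 to 73 probes with BMS-202 and 1000 to 1264 with UV. The coefficient of variation between BMS-202 samples, 12.8%, was close to the 12.5% that counting alone gives.

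Tgfb2 was the ligand gene closest to background. It was listed at the floor of 20 in all 3 UV plus BMS-202 samples, against 69.5, 59.6 and 73.3 in the UV samples, which all lay above the negative control limit of their group. The floor corresponds to 16.5 to 18.3 counts in the BMS-202 samples, whose negative control probes read between 4 and 35 counts. The UV mean was 67.5 ± 7.10 (SD, n = 3), so Tgfb2 was at least 3.37-fold lower with BMS-202. It passed the filter through the UV samples alone, so its direction was fixed by the filter, here and under the other scalings, and no p is given for it. The size of this fall is not known beyond that bound.

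Tgfb3 remained well measured in both groups, with 123.6, 124.1 and 152.9 in the UV plus BMS-202 samples and 357.7, 337.2 and 405.0 in the UV samples. The highest BMS-202 sample lay below the lowest UV sample by more than the range of either group. The means of 134 ± 16.8 with BMS-202 and 367 ± 34.7 with UV (SD, n = 3 each) differ 2.75-fold (log2 -1.45, SE 0.10, 95% interval -1.68 to -1.22, limma adjusted p = 1.68e-07). The variation between samples, 12.6% with BMS-202 and 9.47% with UV, exceeded the counting error of 9.41% and 4.91%.

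The receptor gene Tgfbr1 followed Tgfb3 closely. It read 174.5, 138.4 and 154.0 in the UV plus BMS-202 samples, against 446.7, 444.6 and 453.0 in the UV samples, whose values almost coincided. The variation between UV samples, 0.97%, was below the 4.43% that counting alone gives. Between BMS-202 samples it was 11.6%, against a counting error of 8.69%. Means were 156 ± 18.1 with BMS-202 and 448 ± 4.36 with UV (SD, n = 3 each), 2.88-fold lower (log2 -1.53, SE 0.084, 95% interval -1.71 to -1.34, limma adjusted p = 2.26e-08).

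Smad7, the inhibitor, differed least. It read 107.8, 105.0 and 123.4 in the UV plus BMS-202 samples, against 198.3, 205.5 and 229.5 in the UV samples. The groups did not overlap, and every BMS-202 sample lay below every UV sample. Means were 112 ± 9.91 with BMS-202 and 211 ± 16.3 with UV (SD, n = 3 each), 1.88-fold lower (log2 -0.91, SE 0.094, 95% interval -1.12 to -0.70, limma adjusted p = 4.32e-06).

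**Figure D1:**
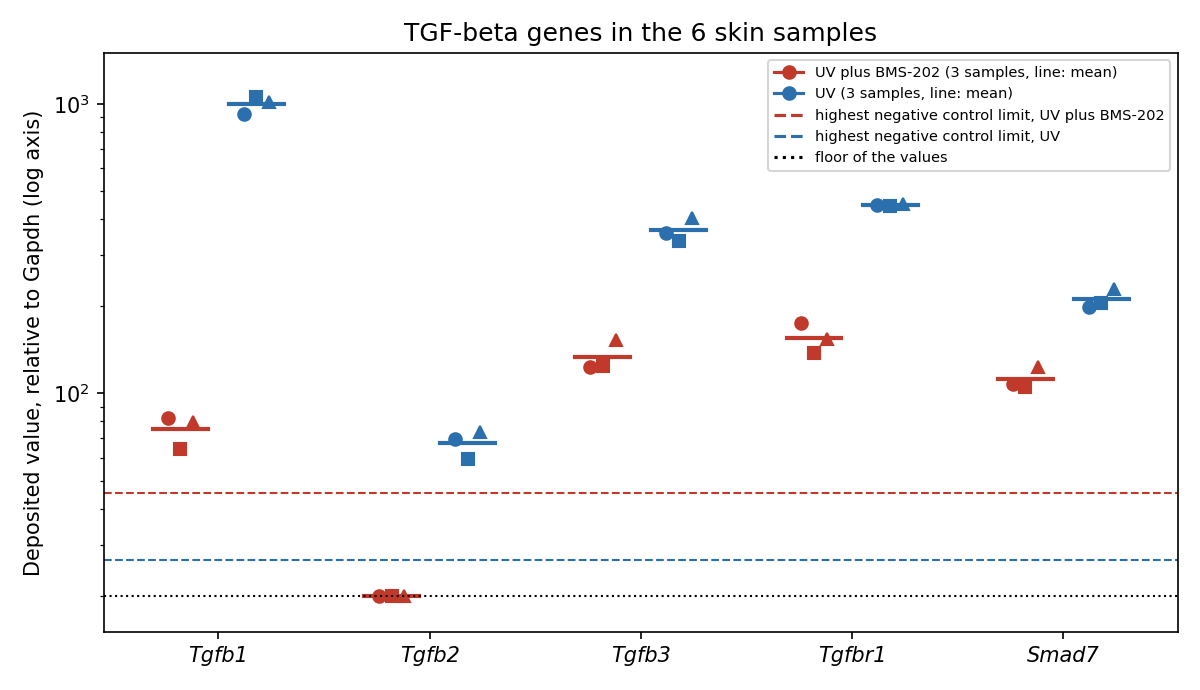
Deposited values relative to Gapdh (log axis) of the 5 genes in each of the 3 UV plus BMS-202 and 3 UV samples (symbols: replicates 1 to 3; bars: group means; lines: the floor of 20 and the highest negative control limits, 45.3 and 26.6). Tgfb1 averages 75.5 in UV plus BMS-202 skin and 1002 in UV skin, and Tgfb2 sits at 20 in each BMS-202 sample.

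Ratios between genes of the same sample do not move with a factor applied to that whole sample, so they compare the members without a choice of housekeeping gene. Tgfb1 was lower in UV plus BMS-202 skin relative to Tgfb3, to Tgfbr1 and to Smad7, and these 3 moved more alike. The log2 ratio of Tgfb1 to Tgfb3 lay between -0.93 and -0.58 in the UV plus BMS-202 samples and between 1.33 and 1.65 in the UV samples. The difference was -2.26 (SE 0.17, 95% interval -2.64 to -1.88, limma adjusted p = 6.52e-07 over 239 genes set against Tgfb3, of which 24.7% were called lower). Probes differ in efficiency, so the ratios describe how a pair moved and not which transcript was more abundant.

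Relative to the receptor gene, Tgfb1 had a log2 ratio of -1.09 to -0.94 across the UV plus BMS-202 samples and of 1.05 to 1.25 in the UV samples. This difference of -2.19 (SE 0.11) had a limma adjusted p of 2.37e-08, with 25.1% of genes called lower relative to Tgfbr1. Relative to Smad7, the ratio was -0.70 to -0.38 across the UV plus BMS-202 samples and 2.14 to 2.36 in the UV samples, a difference of -2.81 (SE 0.13, adjusted p = 3.06e-08). Relative to Smad7, 38.9% of genes were called lower. In all 3 ratios the groups lay apart by more than their whole ranges.

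Tgfb3 and Tgfbr1 could not be distinguished in their fall. Their log2 ratio overlapped between the groups (-0.49 to -0.01 in UV plus BMS-202 skin, -0.40 to -0.16 in UV skin), with a difference of 0.073 and a 95% interval of -0.25 to 0.40 (limma adjusted p = 0.645). Both fell further than the inhibitor gene. The ratio of Tgfb3 to Smad7 changed by -0.55 (SE 0.12, adjusted p = 0.00137) and that of Tgfbr1 to Smad7 by -0.62 (SE 0.14, adjusted p = 0.00167). With quantile normalization, which is not a factor per sample, these 2 differences from Smad7 were -0.0040 and 0.21 and had no call.

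The place of Tgfb2 is bounded on 1 side, since its BMS-202 values are at most 20. No limma SE or p is given for pairs with Tgfb2, since the floor is not a measured value and hides the spread between BMS-202 samples. Set at the floor, its log2 difference was 0.79 below that of Smad7, a gap that shrank when the mean of the negative controls was subtracted (-0.31). It was 0.25 and 0.17 below those of Tgfb3 and Tgfbr1. Quantile normalization moved these 2 differences to -1.58 and -1.79. A pseudocount of 10 turned them to 0.030 and 0.11, and subtraction of the mean negative control to 0.21 and 0.26. Tgfb1 was 2.02 below Tgfb2 at the floor (21.8% of genes were called lower relative to Tgfb2). A lower true value of Tgfb2 would shrink this gap, so the order of Tgfb1 and Tgfb2 is not determined. Of the 10 pairs compared, exact permutation of the 6 samples gave the smallest p that 3 against 3 allow, 0.1, for 8, and 0.2 and 0.7 for Tgfbr1 with Tgfb2 and with Tgfb3. For pairs with Tgfb2 the permutation took the floor as its BMS-202 value.

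**Figure D2:**
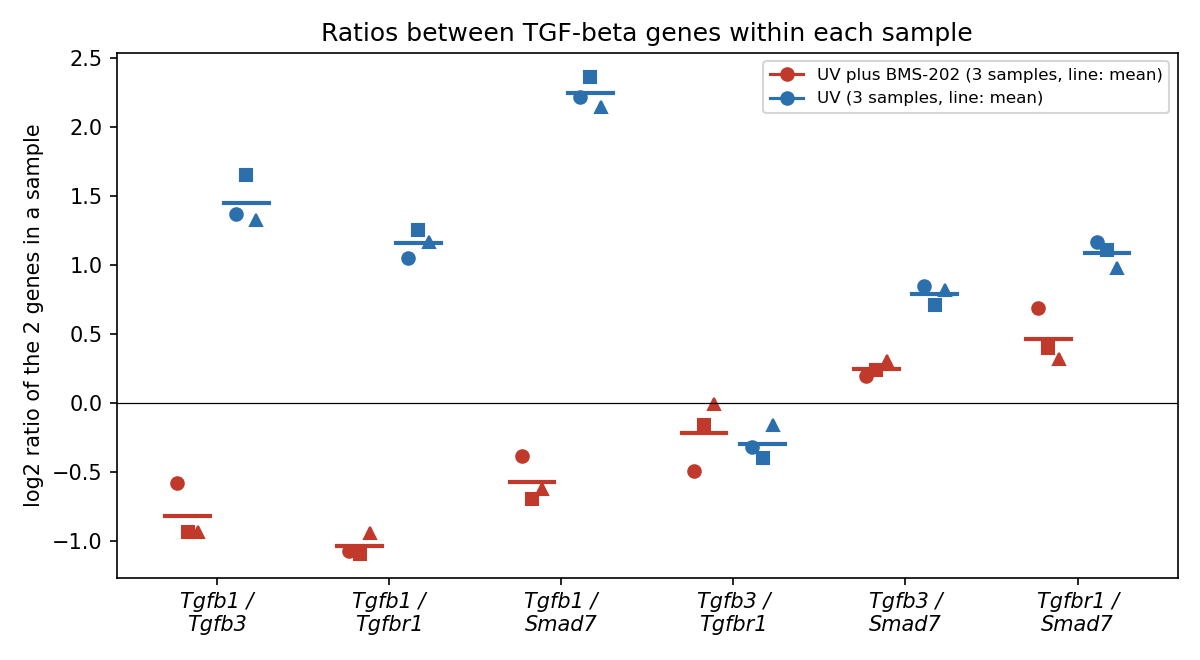
Log2 ratio of 2 TGF-beta genes within each of the 3 UV plus BMS-202 and 3 UV samples (symbols: replicates 1 to 3; bars: group means). The ratios of Tgfb1 to Tgfb3, Tgfbr1 and Smad7 lie below 0 in UV plus BMS-202 skin and above 1.05 in UV skin, and that of Tgfb3 to Tgfbr1 overlaps between the groups.

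Among the tested genes the difference varied with the level in UV skin, where genes at the floor in UV skin could enter the fit only by reading higher with BMS-202. Each member was therefore set beside the tested genes whose UV mean lay within 1.5 times of its own. All 24 genes at the UV level of Tgfb1 were called lower, with a median log2 difference of -2.38, and 1 of the 24 had a more negative difference than the -3.72 of Tgfb1, the cytokine gene Il18 (-4.29). The nearest in level, the stress kinase gene Map2k4 and the glucocorticoid receptor gene Nr3c1, fell 6.42-fold and 4.92-fold, against 13.3-fold for Tgfb1. Tgfb1 thus lay 1.34 below the median of the genes at its level.

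Genes at the UV level of Tgfb2 mostly rose. Of 29 such genes 19 were called higher, 6 lower and 4 neither, with a median of 0.64, and 27 of the 29 had a higher difference than Tgfb2. Its nearest neighbours included Tnf, an inflammatory cytokine gene with 109 in UV plus BMS-202 skin and 64.9 in UV skin, and Ptger2, a prostaglandin E receptor gene with 139 in UV plus BMS-202 skin and 71.2 in UV skin. The complement gene C7, also among the nearest, fell 1.61-fold (47.2 with BMS-202, 76.1 with UV). The leukotriene receptor gene Cysltr1, at 64.6 in UV skin, was down to 20 in each BMS-202 sample, as Tgfb2 was. The 2 of the 29 with a more negative difference, Map2k6 and Plcb1, also read 20 in each BMS-202 sample. The order among these floor genes thus follows their UV means alone. Tgfb2 entered the fit through the UV samples alone, so its place among these genes is a description and was not tested.

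Tgfb3, Tgfbr1 and Smad7 lay near the middle of the genes at their level. Among 44 genes at the level of Tgfb3 the median was -1.58, and 26 had a more negative difference than Tgfb3. For Tgfbr1 these values were -1.65 and 25 of 40 genes, and for Smad7 -0.96 and 24 of 45. The members lay above these medians by 0.13, 0.13 and 0.052.

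**Figure D3:**
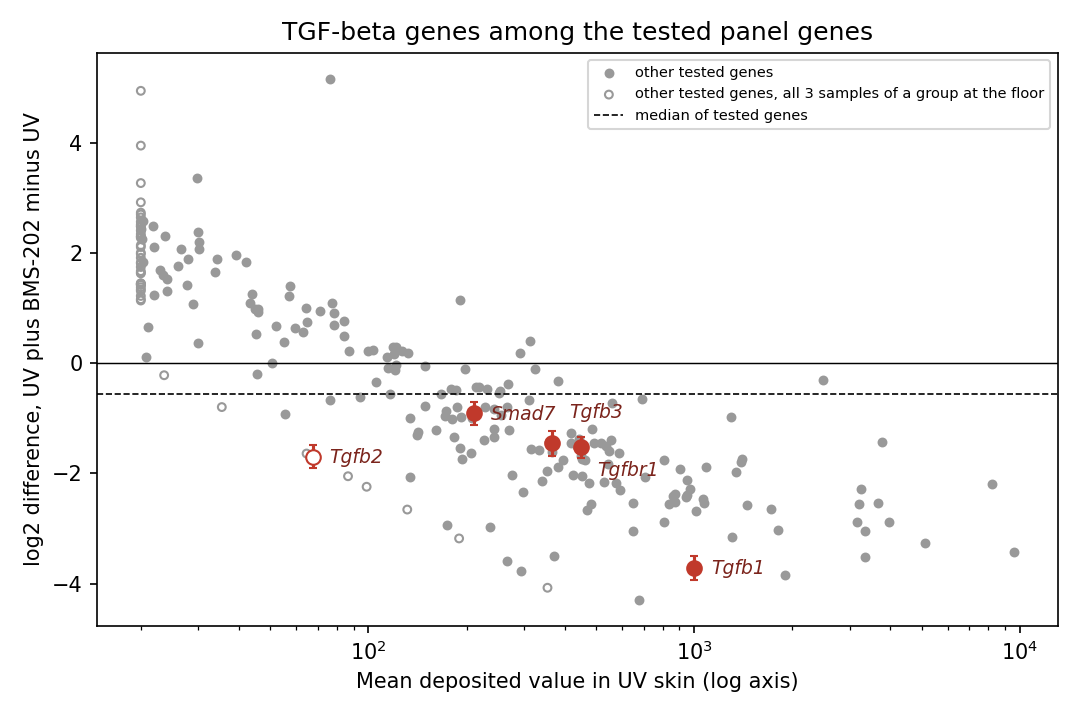
Log2 difference, UV plus BMS-202 minus UV, against the mean deposited value in UV skin (log axis) for the 240 tested genes, with the 5 TGF-beta genes in red (bars: 95% intervals; open symbols: all 3 samples of a group at the floor, so that the size is a bound). Tgfb1 at -3.72 and Tgfb2 at -1.70 lie under most genes of like UV level, and Tgfb3, Tgfbr1 and Smad7 lie among them.

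Of the members, Tgfb1 was called lower under each of 7 scalings that were tried. Its log2 difference ran from -4.09 relative to the positive spike-in controls to -1.02 relative to the 5 housekeeping genes other than Gapdh (limma adjusted p = 9.41e-06). Per positive spike-in count, Tgfb1 in UV plus BMS-202 skin was 0.0581 of its level in UV skin. Under the spike-in scaling all 5 members were called lower (59.4% of tested genes lower, 34.3% higher), with Tgfb3, Tgfbr1 and Smad7 at 0.280, 0.267 and 0.408 of their UV levels and Tgfb2 at most 0.227.

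The receptor gene, Tgfb3 and Smad7 changed direction with the scaling. Relative to the 6 housekeeping genes, Tgfb1 was lower by a log2 difference of -1.47, whereas Tgfb3, Tgfbr1 and Smad7 were higher by 0.80, 0.73 and 1.34, where 14.2% of tested genes were called lower and 78.9% higher. Relative to the 5 without Gapdh these 3 were higher by 1.25, 1.18 and 1.79, beside 7.36% of genes lower and 87.9% higher. Under both, the rescaled floor of the BMS-202 samples lay above the UV values of Tgfb2, which left its direction undetermined.

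Scaling to the panel median kept Tgfb1 (-2.75), Tgfb2 (-0.74), Tgfb3 (-0.48) and Tgfbr1 (-0.56) lower, beside 40.9% of genes lower and 52.3% higher, and left Smad7 at 0.060 (adjusted p = 0.568). Quantile normalization called Tgfb1 (-3.41) and Tgfb2 (-1.93) lower and none of the other 3, beside 40% of genes lower and 41.2% higher. As a share of all gene counts, Tgfb3 made up 24.3 to 31.1 per 10000 counts across the UV plus BMS-202 samples and 25.0 to 30.6 in the UV samples, ranges that overlap. Smad7 made up 20.6 to 25.1 per 10000 with BMS-202 and 14.98 to 17.3 with UV, and Tgfb1 12.6 to 16.4 with BMS-202 and 70.0 to 78.6 with UV. Scaled to these totals, Tgfb1 and Tgfb2 were called lower (-2.32 and -0.31) and Smad7 higher (0.49), with no call for Tgfb3 and Tgfbr1, beside 31.2% of genes lower and 59.5% higher.

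**Figure D4:**
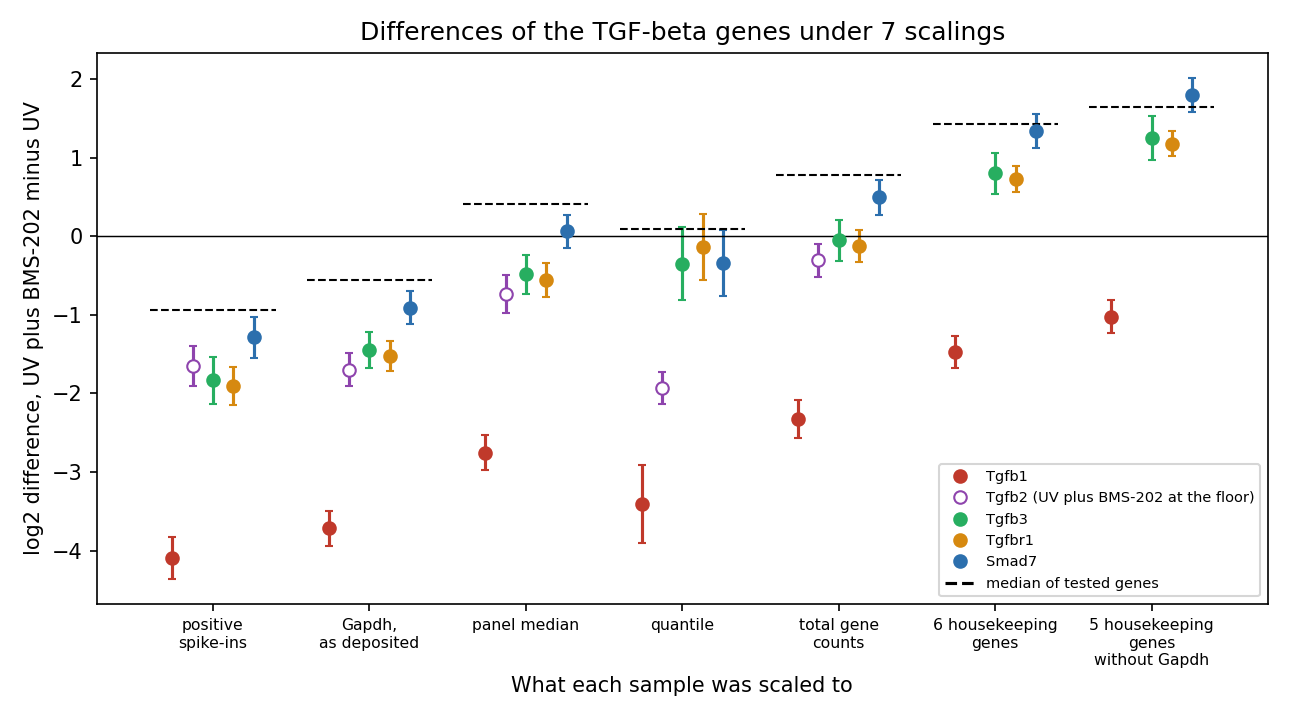
Log2 difference, UV plus BMS-202 minus UV, of the 5 TGF-beta genes with each sample scaled in 7 ways (bars: 95% intervals; dashed: median of all tested genes; open symbols: Tgfb2, at the floor in the BMS-202 samples and without a value under both housekeeping scalings). Tgfb1 stays between -4.09 and -1.02, and Smad7 runs from -1.29 to 1.79.

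Other panel genes that act with the pathway were mostly lower relative to Gapdh, in a panel where most genes were. Of 7 transcription factor genes whose products act with SMADs, 6 were lower and 1 higher, where 55% of all tested genes were lower and 38.3% higher. Their median log2 difference was -1.75, against -0.56 over all tested genes. Cebpb, a stress-responsive factor gene, fell 8.27-fold (406 ± 24.3 with BMS-202, 3354 ± 123 with UV; SD, n = 3 each) and was lower under all 7 scalings. The AP-1 gene Jun fell 5.92-fold and was lower under all but the 5 housekeeping genes without Gapdh (0.15, limma adjusted p = 0.135). Creb1, a cAMP-responsive factor gene, rose 4.49-fold to 98.5 ± 12.6 with BMS-202, against 22.0 ± 0.25 with UV, values that in UV skin lie under the negative control limit. Creb1 was higher under all 7 scalings. With the panel median, total gene counts and both housekeeping scalings, however, rescaled floors of 39.9 to 135 lay above its UV values and fixed that direction. The list's median turned to 0.50 relative to the 6 housekeeping genes (4 higher, 2 lower), beside 78.9% of tested genes higher and 14.2% lower. Without Gapdh among them it was 0.95 (5 higher, 1 lower), beside 87.9% higher and 7.36% lower. With quantile normalization it was 0.15 (3 higher, 2 lower), beside 41.2% higher and 40% lower.

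The 6 genes of the branch through TGF-beta activated kinase to p38 and JNK were all lower (median log2 -2.22), where 55% of all tested genes were lower, and Map2k6 among them entered the fit through the UV samples alone. Of the 5 testable relative to the 6 housekeeping genes 2 were higher and 3 lower (median -0.13), beside 78.9% of tested genes higher and 14.2% lower. Without Gapdh among these 4 were higher and none lower (median 0.32), beside 87.9% higher and 7.36% lower. Map3k7, which encodes that kinase, fell 3.71-fold (293 ± 3.39 with BMS-202, 1086 ± 2.31 with UV; SD, n = 3 each), and turned to 0.37 and 0.82 relative to the 6 housekeeping genes and to the 5 without Gapdh. Map2k4, the kinase gene upstream of JNK, fell 6.42-fold, and turned to 0.03 without a call (limma adjusted p = 0.551) relative to the 5 housekeeping genes without Gapdh. Map2k6, a p38 activator gene, read 20 in each BMS-202 sample, at least 4.33-fold lower.

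Of 7 genes in the Ras and ERK branch 6 were lower and 1, the small GTPase gene Hras1, was higher (median log2 -2.51), where 55% of all tested genes were lower and 38.3% higher. Relative to the 6 housekeeping genes 2 were higher and 4 lower (median -0.26), beside 78.9% of tested genes higher and 14.2% lower. The adaptor gene Shc1 fell 7.39-fold, and kept that direction under all 7 scalings, without a call for the 5 housekeeping genes without Gapdh (limma adjusted p = 0.139). Hras1 rose 1.60-fold (83.0 ± 3.53 with BMS-202, 52.1 ± 10.2 with UV; SD, n = 3 each) and turned to -0.16 with quantile normalization (adjusted p = 0.144). Under both housekeeping scalings the rescaled floors, 98.0 and 135, lay above its UV values, which fixed its direction there. Relative to the 5 housekeeping genes without Gapdh 4 genes of this branch were higher and none lower (median 0.19), beside 87.9% of tested genes higher and 7.36% lower.

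Among 8 genes described as responsive to TGF-beta, 5 were lower, 1 was higher and 2 did not pass (median log2 -1.08), where 55% of all tested genes were lower. The list's median turned to 1.10 relative to the 6 housekeeping genes (6 higher, 1 lower), beside 78.9% of tested genes higher and 14.2% lower. Without Gapdh among them it was 1.32 (7 higher, 1 lower), beside 87.9% higher and 7.36% lower. With total gene counts it was 0.32 (4 higher, 3 lower), beside 59.5% higher and 31.2% lower. With quantile normalization it was 0.070 (2 higher, 2 lower), beside 41.2% higher and 40% lower. The rescaled floor was 98.0 with the 6 housekeeping genes and 135 without Gapdh, and a gene wholly under it in UV skin could only be called higher. Both floors lay above the UV means of Il11 and Arg1, and that without Gapdh also above that of Twist2. The matrix protease gene Mmp9 fell 8.24-fold (78.6 ± 13.96 with BMS-202, 648 ± 25.2 with UV; SD, n = 3 each) and was lower under all 7 scalings. The growth factor gene Pdgfa fell 5.18-fold and turned to 0.34 relative to the 5 housekeeping genes without Gapdh. The 1 higher gene, the cytokine gene Il11, averaged 51.2 ± 1.83 with BMS-202 (SD, n = 3) and was listed at 20 in each UV sample, at least 2.56-fold higher. It passed the filter through the BMS-202 samples alone, which fixed its direction. Arg1, which encodes arginase, read 102 ± 14.3 with BMS-202 and 87.3 ± 14.1 with UV (SD, n = 3 each; adjusted p = 0.155), and the mesenchymal factor gene Twist2 read 147 ± 10.6 with BMS-202 and 127 ± 15.1 with UV (limma adjusted p = 0.0716).

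**Figure D5:**
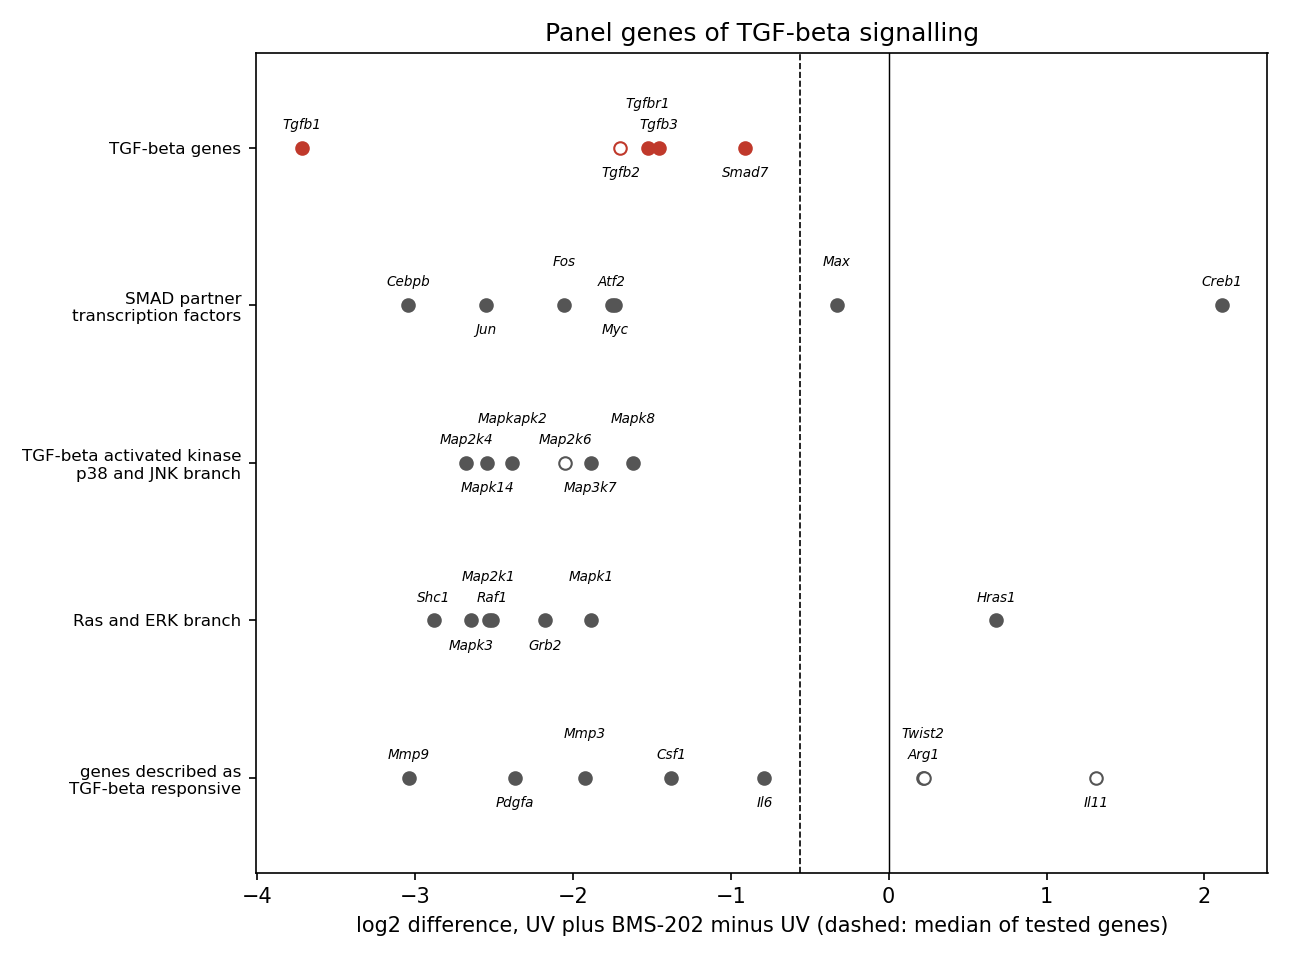
Log2 difference, UV plus BMS-202 minus UV, relative to Gapdh, of the 5 TGF-beta genes and of 4 lists of panel genes that act with the pathway (open symbols: past no threshold, or all 3 samples of a group at the floor; dashed: median of tested genes, -0.56). Most genes lie left of 0, with Creb1, Hras1 and Il11 to its right and Arg1 and Twist2, which did not pass, just right of it.

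The tested genes most like Tgfb1 over the 6 samples, by the root mean square distance of log2 values after centring on the UV mean, were the repressor gene Bcl6 (0.15), the ion transport regulator gene Fxyd2 (0.16) and the neutrophil chemokine gene Cxcl5 (0.21). Unlike Tgfb1, all 3 averaged under the negative control limit with BMS-202, at 21.3, 20.6 and 31.9, where the size of a fall is least certain. Nearest to Tgfb3 were Il1b, Ltb4r1 and Hspb1 (0.14 to 0.15), and nearest to Tgfbr1 the complement factor genes Cfb (0.064) and Cfd (0.081) and the G protein gene Gnaq (0.090). Smad7 was nearest to the actin-regulating kinase gene Limk1 (0.10). Tgfb2 was nearest to Cysltr1 (0.066), also at the floor. With 2 groups these distances mainly match genes by the size of their difference.

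Markers of other cell types moved with the groups, and their part in the differences above was not tested. Relative to Gapdh, 55% of all tested genes were called lower and 38.3% higher. All 8 macrophage markers were lower relative to Gapdh, with a summed value of 1588 to 1696 across the UV plus BMS-202 samples and 7907 to 8061 in the UV samples. All 8 were also lower with the spike-in scaling (59.4% of tested genes). With the panel median 7 were lower (40.9%), with total gene counts 6 lower and 1 higher (31.2% and 59.5%), and with quantile normalization 6 lower and 1 higher (40% and 41.2%). Relative to the 6 housekeeping genes, however, 3 were higher and 1 lower (78.9% and 14.2%). Relative to the 5 without Gapdh 6 were higher and 1 lower (87.9% and 7.36%). This list does not hold every panel gene that macrophages can express. Outside it, Chi3l3, Nos2 and Cd86 were higher relative to Gapdh (log2 3.36, 2.50 and 0.69), and Retnla and Arg1 had no call. Nos2 averaged 21.8 with UV, under the negative control limit. All 5 T cell markers were higher (summed 370 to 383 with BMS-202, 136 to 161 with UV), though 3 of them, Cd40lg, Fasl and Ccr4, read 20 in each UV sample. Those 3 passed the filter through the BMS-202 samples alone, which fixed their direction. Ltb averaged 23.3 with UV, under the highest negative control limit of 26.6, and Cd4 averaged 129 with BMS-202 and 64.3 with UV. Quantile normalization called 4 of the 5 higher, beside 41.2% of tested genes. All 6 genes of liver-made plasma proteins were at the floor in every UV sample, and 5 were above it with BMS-202 (summed 721 to 740 with BMS-202, 120 with UV). Both mast cell or eosinophil genes summed to 183 to 236 with BMS-202, and read 20 in each UV sample. These genes and the 5 of plasma proteins entered the fit through the BMS-202 samples alone, which fixed their direction. Of 3 neutrophil genes 1 was higher, 1 lower and 1 without a call (summed 406 to 433 with BMS-202, 1884 to 1979 with UV). The lower neutrophil sum was carried by Itgb2 (221 with BMS-202, 1804 with UV), which the macrophage list also holds, while Cxcr1 averaged 78.3 with BMS-202 and 20 with UV and Cxcr2 124 with BMS-202 and 114 with UV. Of 2 muscle genes Myl2 was higher and Mef2c, listed as Mef2c_Mm, lower (summed 117 to 131 with BMS-202, 333 to 399 with UV). Myl2 and Cxcr1 read 20 in each UV sample and Mef2c in each BMS-202 sample, so the filter fixed their directions. Keratin, collagen and Pecam1 genes, which would check the tissue itself, are not among the 254 genes, and the endothelial gene Flt1 was 1.74-fold lower (summed 80.0 to 91.9 with BMS-202, 130 to 168 with UV) but higher under both housekeeping scalings and as a share of total gene counts.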

How the data were processed

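The nCounter Mouse Inflammation V2 panel was run on total RNA, per the labels. Judged by the deposited values, the signal is scaled so that Gapdh is equal in all 6 samples, and values above the floor of 20 are whole multiples of a step per sample (within 0.006 plus a millionth), which gave the counts. The sources used here do not give the authors' software or background handling. Groups follow the labels' treatment field.

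limma 3.58.1 in R 4.3.3 (lmFit, eBayes with trend) was run on log2(value + 1) over all 240 endogenous genes above 20 in at least 3 samples, with Benjamini-Hochberg adjustment at 0.05. The log2(value + 1) scale understates changes of low genes, and folds are ratios of means. The procedure was tested on simulated data. For pairs, every gene was taken relative to 1 member and refitted. Genes of such a fit share the denominator's error, which made limma's prior degrees of freedom infinite for 3 of the 4 denominators, so the SE and p given for pairs use those of the single-gene fit, 5.49, a choice made after seeing the data. The fit without it made the same calls for all 10 pairs and gave the values of the alternatives.

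Alternatives were 6 other scalings, with the highest rescaled 20 as a common floor (total gene counts was added after seeing the data), filtering at 50 or not at all, pseudocount 10, no trend, leaving out each sample, a replicate block, and, added later, subtraction of the mean negative control. Members and lists were chosen with earlier results of these data known. Named genes are the members, the lists, the nearest in UV level and the 3 nearest profiles per member. Il18, H2-Eb1, Plcb1, Chi3l3, Nos2, Cd86 and Retnla were named after their values were seen. All 5 symbols matched RefSeq, and promoter windows were taken for Tgfb1, Tgfb2 and Tgfbr1 only. The sources name no genome build. A further list of pathway genes is not reported here.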

Additional observations from a re-analysis of the deposited data

How the results depend on the processing

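Tgfb1 stayed called lower under every alternative, and Tgfb2, whose direction the filter fixed, under every one that gave it a value. Neither housekeeping scaling gave Tgfb2 a value, nor did leaving out a UV sample, since then fewer than 3 samples exceed the floor. Of 223 alternative values of single genes and pairs, 192 kept their direction and side of the threshold. With the 6 housekeeping genes Tgfb3, Tgfbr1 and Smad7 reversed to 0.80, 0.73 and 1.34, with 183 panel genes called higher and 33 lower. With the 5 without Gapdh they reversed to 1.25, 1.18 and 1.79 (203 higher, 17 lower). Smad7 reversed to 0.060 with the panel median and 0.49 with total gene counts (141 higher, 74 lower), where Tgfb3 (-0.050) and Tgfbr1 (-0.12) lost their calls. Quantile normalization ended the calls of Tgfb3 (-0.35), Tgfbr1 (-0.14) and Smad7 (-0.35). The causes were not tested.

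Among pairs, quantile normalization moved Tgfb2 against Tgfb3 to -1.58, Tgfb2 against Tgfbr1 to -1.79 and Tgfb3 against Smad7 to -0.0040. It reversed Tgfb3 against Tgfbr1 (-0.21) and Tgfbr1 against Smad7 (0.21). Tgfb2 against Tgfb3 and Tgfbr1 reversed to 0.030 and 0.11 with a pseudocount of 10 and to 0.21 and 0.26 with the negative control mean subtracted. That subtraction also moved Tgfb2 against Smad7 to -0.31. The exact permutation test leaves the differences as they are and cannot pass 0.05 with 3 against 3 (p = 0.1): Tgfb1 against Tgfb2 (-2.02), Tgfb3 (-2.26), Tgfbr1 (-2.19) and Smad7 (-2.81), and Smad7 as partner of Tgfb2 (-0.79), Tgfb3 (-0.55) and Tgfbr1 (-0.62).

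Leaving out 1 sample, Tgfb3 against Tgfbr1 ranged from -0.032 to 0.21, reversing without UV plus BMS-202 replicate 3. The panel genes called higher ranged from 51 to 94, with 51 or 52 when any UV plus BMS-202 sample was left out, because genes at the floor in UV skin then miss the filter. The replicate numbers do not pair the samples (correlations of deviations 0.018, -0.039 and 0.013), and a replicate block ended no call of a member (Tgfb1 adjusted p = 1.46e-07) and left 90 panel genes higher and 132 lower. Depth limits Tgfb2, whose floor is at most 18.3 counts per BMS-202 sample, under the negative control limit.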
